A study of Mus musculus with 26 samples.

Results

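The 1228 miRNA genes of chromosomes 1 to 19 and X were placed against the domain boundaries of mouse embryonic stem cells (ESCs) in the G1 phase. They are all genes that the RefSeq annotation of GRCm38, the build also called mm10, gives the class miRNA, out of 49209 annotated genes placed on these chromosomes. Neighbouring miRNA genes under 100 kb apart were joined, which gave 831 loci. A microRNA is a short RNA cut from a hairpin transcript, first by the Drosha and Dgcr8 complex in the nucleus and then by Dicer, and it guides Argonaute proteins to messenger RNAs that match its seed, the bases 2 to 8 from its 5′ end. Its gene can have a promoter of its own, share a transcript with other miRNAs in a cluster, or lie in an intron of a host gene. A domain boundary is a site across which chromatin contacts are depleted, commonly where cohesin extruding a loop is halted by CTCF, and it limits which enhancers and promoters meet.

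The boundaries came from Micro-C, a conformation assay in which crosslinked chromatin is cut with micrococcal nuclease and neighbouring fragments are ligated. All 26 libraries were made from 1 line, RAD21-dTAG, derived from Bruce-4 cells of genotype C57BL/6J, in which the cohesin subunit RAD21 carries a tag for induced degradation, so the vehicle-treated cells carry the tag too. ESCs received 500 nM dTAG (6 libraries), 20 µM A485 (6 libraries), which blocks the histone acetyltransferase activity of p300 and CBP, or 0.05% v/v DMSO (6 libraries). Epiblast-like cells received dTAG (4 libraries) or DMSO (4 libraries). The results below rest on the DMSO-treated ESCs, cultured in serum/2i/LIF medium, whose libraries were pooled into 1 list of 3515 boundary intervals, each 25 kb wide and without a score. There is therefore no value per library, no replicate error and no comparison between treatments, the number of contacts behind a boundary is unknown, and the values below are descriptions without a test. Expression was not measured in these files, so neither the cell type nor the activity of a miRNA gene was checked. Intervals given for shares are 95% Wilson intervals and cover counting error only, although clustered genes are not independent.

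The sequences below include miRNAs with the same seed that lay both beside boundaries and deep inside domains. Their function was not measured here, and genes of 1 cluster share their position. The mature sequences are those of RefSeq for GRCm38.p6, written 5′ to 3′ with the seed in capitals. The first 6 share 1 seed and come from the Mir17 cluster on chromosome 14, the Mir106b cluster on chromosome 5 and the Mir106a cluster on chromosome X.
miR-17-5p: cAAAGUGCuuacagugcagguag
miR-20a-5p: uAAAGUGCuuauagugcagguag
miR-93-5p: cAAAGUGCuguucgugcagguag
miR-106b-5p: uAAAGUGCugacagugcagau
miR-106a-5p: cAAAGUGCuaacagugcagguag
miR-20b-5p: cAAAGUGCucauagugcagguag
The next 3 come from the ESC clusters Mir290 and Mir302, whose seed is the same string moved along by 1 base.
miR-294-3p: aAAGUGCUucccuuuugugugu
miR-295-3p: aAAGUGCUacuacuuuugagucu
miR-302b-3p: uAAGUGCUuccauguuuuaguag
The same 3 clusters share a second seed, so it too lies beside boundaries on chromosomes 14 and 5 and away from them on chromosome X.
miR-25-3p: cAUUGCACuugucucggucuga
miR-92a-3p: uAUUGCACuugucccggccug
miR-363-3p: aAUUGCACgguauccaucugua
The miRNAs of the Hox clusters are shown because 2 of the genes of miR-196 lie inside boundary intervals, whereas those of miR-10 do not.
miR-196a-5p: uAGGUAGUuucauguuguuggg
miR-196b-5p: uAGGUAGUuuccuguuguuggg
miR-10a-5p: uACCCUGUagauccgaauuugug
miR-10b-5p: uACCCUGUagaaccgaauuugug

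Of the 1228 miRNA genes, 122 had an end inside a boundary interval or within 10 kb of one, a share of 9.93% (interval 8.38 to 11.7), against 13.0% of all annotated genes. These positions cover 6.16% of the annotated span, the stretch from the first to the last gene or boundary of each chromosome. Protein-coding genes reached 18.3%, tRNA genes 22.1%, long non-coding RNA genes 10.3%, snoRNA genes 10.2% and snRNA genes 7.03%. The median miRNA gene is 80 bases long, whereas a long gene has 2 ends far apart that can each meet a boundary. Whether length accounts for the differences in share was not tested. Among the other 3596 annotated genes of up to 200 bases, 357 were this close, which is 9.93%, the same share as for miRNA genes. That set pools different classes of gene, and the shares of tRNA and snRNA genes, 22.1% and 7.03%, lay above and below it. The midpoints of all annotated genes were this close in 9.18% of cases.

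**Figure D1:**
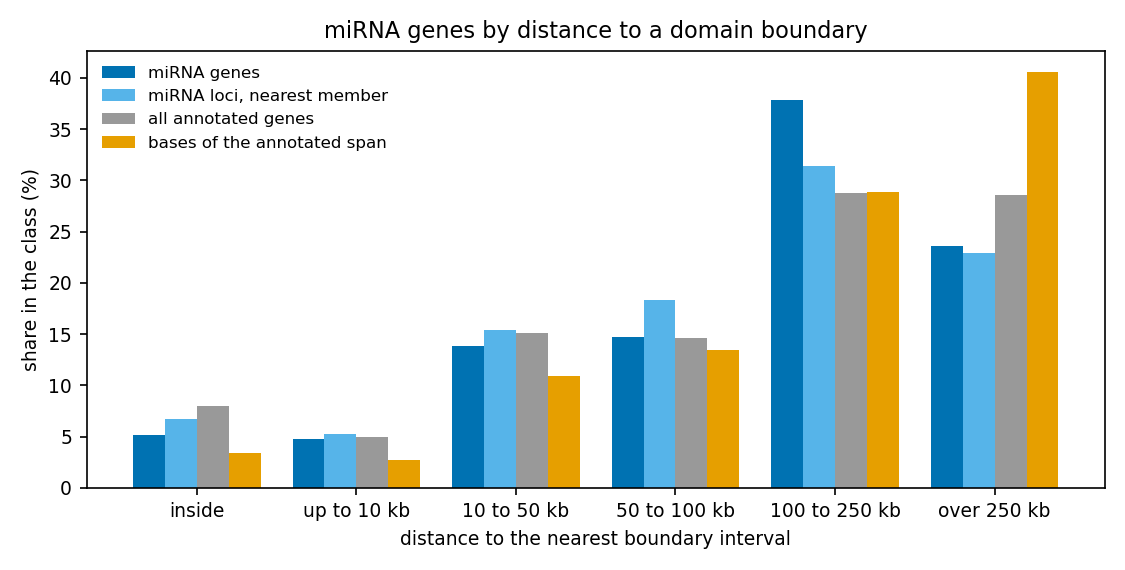
Share of miRNA genes, miRNA loci (by their nearest member), all annotated genes and bases of the annotated span (y axis, %) in 6 classes of distance to the nearest boundary interval (x axis). Beyond 250 kb lie 23.6% of the miRNA genes and 22.9% of the loci, against 40.6% of the span.

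The median miRNA gene lay 146 kb from a boundary, with quartiles of 54.3 and 245 kb, against 130 kb for all annotated genes and 98.9 kb for protein-coding genes. The median was 162 kb for the other genes of up to 200 bases, 191 kb for snoRNA and 170 kb for snRNA genes. For long non-coding RNA genes it was 129 kb and for tRNA genes 53.3 kb. An end lay inside an interval for 63 miRNA genes (5.13%) and for 8.07% of the other 47981 annotated genes, and intervals cover 3.42% of the span. Another 59 miRNA genes lay up to 10 kb outside, and 170 between 10 and 50 kb. With a window of 50 kb, 23.8% of miRNA genes were near, against 28.1% of all annotated genes and 17.1% of the span. Counted by locus, 100 of 831 were near (12.03%, interval 9.99 to 14.4), and the median locus, by its nearest member, lay 116 kb away. The share of loci exceeded the share of the span 1.97-fold inside intervals, 1.94-fold up to 10 kb outside and 1.41-fold from 10 to 50 kb, and was 0.563-fold the share of the span beyond 250 kb. All annotated genes were thinner there too, with 28.5% of them beyond 250 kb.

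Most loci were single genes: 677 of 831 held 1 member, 141 held 2 to 4 and 13 held 5 or more. Of the single genes 76 were near a boundary (11.2%), of the loci with 2 to 4 members 21 (14.9%) and of the loci with 5 or more 3. A locus with many members had more chances to be near, and counted by gene the order was the opposite, with 10.7% of genes in loci of 2 to 4 and 4.93% of genes in loci of 5 or more. The pair of loci with most members, in Sfmbt2 and along Meg3, Rian and Mirg, together hold 132 genes and none near a boundary. Without them the share of genes was 11.1% (interval 9.40 to 13.1) and the median distance 126 kb.

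Of the loci with most members, the following 5 each lay whole within 1 domain. The Sfmbt2 locus on chromosome 2 (chr2:10466663-10518279) packs 72 genes, 71 of them of the Mir466, Mir467, Mir669 and Mir297 families, into 51.6 kb within Sfmbt2, an imprinted Polycomb-related gene. All of them lay in a 750 kb domain with 1 protein-coding gene midpoint, 142 to 193 kb from a boundary. The Meg3 locus on chromosome 12 (chr12:109544541-109747960) holds 60 genes over 203 kb, from Mir1906-1 to Mir3072, expressed from the maternal chromosome together with the long non-coding RNAs Meg3, Rian and Mirg. Its members shared a 575 kb domain, 145 to 282 kb from the nearest boundary. On chromosome X the 19 genes from Mir743 to Mir465 (chrX:66776757-66839125), known for expression in testis, belonged to a 1300 kb domain and lay 186 to 248 kb from its nearer end. On chromosome 7 the 13 Mir344 genes and their neighbours (chr7:61683124-62085310) stretched over 402 kb and still fell in 1 domain, of 2950 kb, with their nearest member 89.7 kb from its end. The 9 genes from Mir8111 to Mir3074-2 on chromosome 8 (chr8:84005628-84208921), among them Mir23a, Mir27a, Mir24-2, Mir181c and Mir181d, also shared a domain, of 650 kb, and of them Mir8111 was near a boundary, at 5.63 kb.

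Among the 154 loci of 2 or more members, 143 had all members in 1 stretch, 3 had members on both sides of an interval and 8 had some inside an interval and the rest on 1 side. The divided locus with most members was at Htr2c on chromosome X, which encodes a serotonin receptor and hosts the 7 miRNA genes of the locus, all on its own strand. The interval at 147000001 to 147025000 holds Mir764, Mir1912 and Mir1264. Gm22650 lies 0.492 kb below it, whereas Mir1298, Gm24627 and Mir448 lie 39.9, 82.0 and 133 kb above it. The lower side thus rests on a single gene, at an offset that is small beside the interval width of 25 kb. The interval lies inside the host, whose nearer end is 37.5 kb away. The sequences of members inside (miR-764-5p, miR-1264-3p) and above it (miR-1298-5p, miR-448-3p) share no seed.
miR-764-5p: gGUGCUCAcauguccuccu
miR-1264-3p: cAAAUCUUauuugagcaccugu
miR-1298-5p: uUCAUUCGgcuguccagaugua
miR-448-3p: uUGCAUAUguaggaugucccau
The other two divided loci are pairs of single genes, Mir3100 in Dmpk and Mir330 in Eml2 on chromosome 7, 38.1 and 31.5 kb from the interval between them, and Mir8095 and Mir6362, both in Dgkg on chromosome 16, 42.8 and 5.33 kb from theirs. With neighbours joined under 50 kb no locus was divided, and with neighbours joined under 250 kb 26 were, so the count follows the joining distance.

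**Figure D2:**
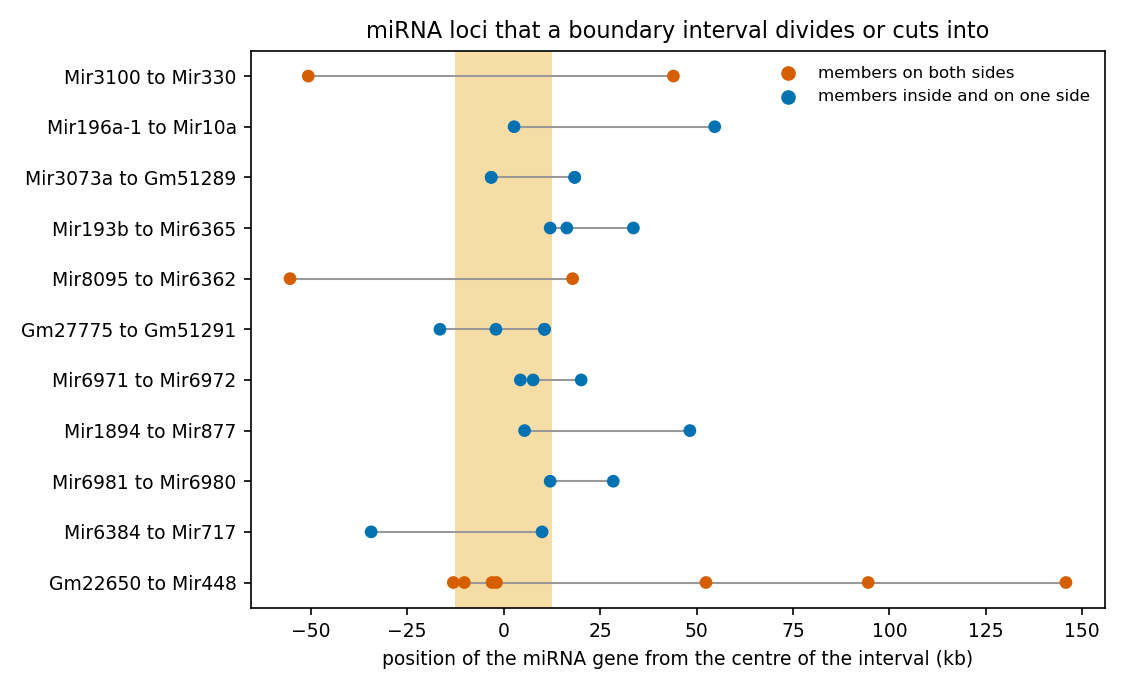
Position of each miRNA gene from the centre of the interval (x axis, kb) in the 11 loci that an interval divides or cuts into (rows, named by first and last member), with the 25 kb interval shaded. The 3 loci in orange have members on both sides, and the Htr2c locus, in the bottom row, reaches 146 kb above the centre.

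In 8 loci some members lay inside an interval and the rest beside it. Mir193b lies inside the interval at 13425001 to 13450000 on chromosome 16, with Mir365-1 3.84 kb and Mir6365 21.1 kb above it, the first pair in the long non-coding RNA Gm53058. The other copy of Mir365, Mir365-2 on chromosome 11, encodes the identical mature sequence 273 kb from a boundary.
miR-193b-3p: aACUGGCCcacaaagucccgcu
miR-365-3p: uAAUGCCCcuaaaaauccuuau
Mir203, an miRNA of skin differentiation, lies 5.88 kb above the interval at 112100001 to 112125000 on chromosome 12, with the overlapping Gm51289 at 5.89 kb and Mir3073a and Mir3073b inside it in Aspg. In the major histocompatibility region of chromosome 17, Mir6970 and Mir6971 lie inside an interval within Skiv2l and Mir6972 7.57 kb away in Cfb, which encodes complement factor B. Elsewhere on chromosome 17, Mir6968 in Phf1 lies inside an interval and Gm27775 in Kifc5b 3.98 kb below it. Mir1894 in Ppp1r10 (beside Mir877), Mir6981 in Arap3 (beside Mir6980), Mir717 in Gpc3 (beside Mir6384) and Mir196a-1 in HoxB (beside Mir10a) are further members inside an interval whose locus continues beyond it.

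Groups of miRNAs known for a tissue or function spread over all distances. The 12 groups hold 297 genes, of which 17 were near a boundary (5.72%), and 17 of 165 (10.3%) outside the Sfmbt2 and Meg3 loci, against 11.1% of all miRNA genes outside these loci. The 931 genes outside the groups were near in 11.3% of cases. In 7 groups no member was near: the pluripotency, let-7, muscle, blood and immune, growth control, imprinted and X-linked testis groups. Their median distances ran from 78.2 kb for growth control to 379 kb for pluripotency. In the pluripotency group 9 of the 14 genes belong to the Mir290 cluster, which sets that median. Counted by locus, the medians ran from 79.4 kb for growth control, over 13 loci, to 204 kb for pluripotency, over 2 loci. The listed symbols Mir486b, Mir497a, Mir21, Mir145, Mir126 and Mir465a were not matched to the annotation under these spellings.

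**Figure D3:**
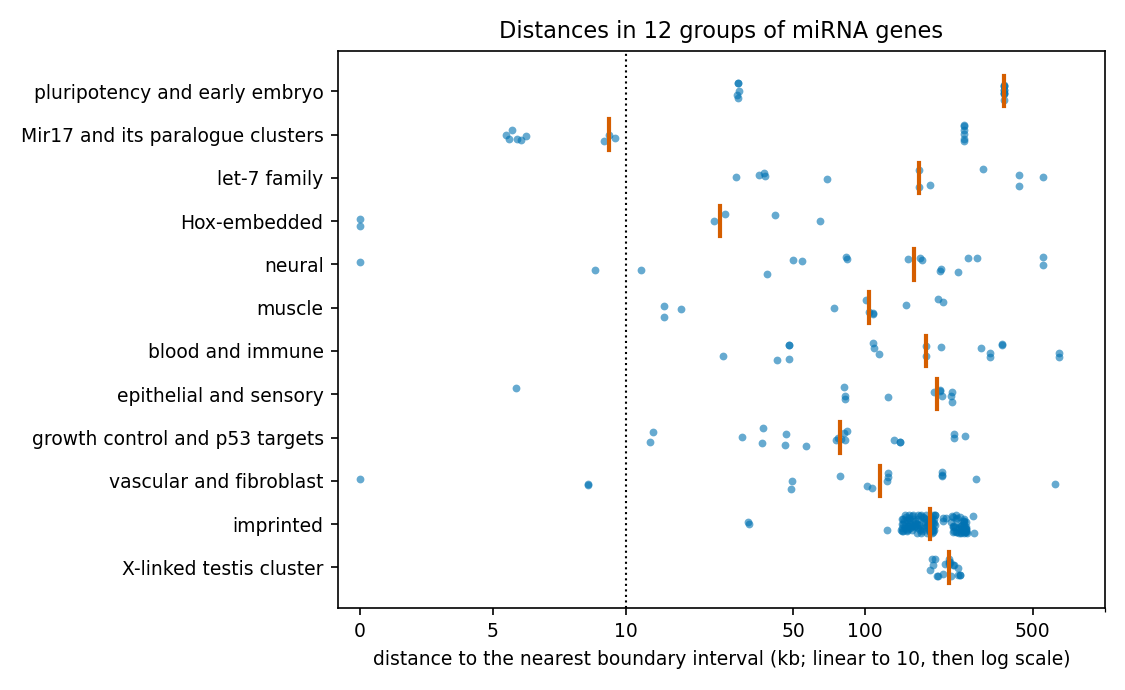
Distance of each miRNA gene to the nearest boundary interval (x axis, kb, linear to 10 and log beyond) in 12 groups of miRNAs (rows), with the group median as an orange bar and 10 kb as a dotted line. The Mir17 group splits into 9 genes within 10 kb and 6 genes at 257 to 258 kb.

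The Mir17 cluster and its paralogues stood on both sides of the 10 kb window. These clusters encode miRNAs that promote proliferation and restrain apoptosis, and the first is known as an oncogenic cluster. Mir17, Mir18, Mir19a, Mir20a, Mir19b-1 and Mir92-1 lay 6.25, 6.06, 5.92, 5.74, 5.61 and 5.50 kb below the boundary at 115050001 to 115075000 on chromosome 14. They lie within 0.836 kb at the end of a 2125 kb domain without a protein-coding gene midpoint. That boundary had more miRNA genes within 10 kb than any other in the list. Mir106b, Mir93 and Mir25 lay 9.18, 9.39 and 9.60 kb below the boundary at 138175001 to 138200000 on chromosome 5, in Mcm7, which encodes a subunit of the replicative helicase and is transcribed on the same strand. The Mcm7 end itself lay 2.89 kb from the interval, in a 375 kb domain with 15 protein-coding genes. On chromosome X, Mir106a, Mir18b, Mir20b, Mir19b-2, Mir92-2 and Mir363 shared a 575 kb domain with 3 protein-coding genes, 257 to 258 kb from its nearer end. The ends of that domain also carry miRNA genes. Mir717, in Gpc3, lies inside the interval that opens it, and the interval that closes it, at 53000001 to 53025000, separates it from the Mir322 and Mir450 cluster, whose 7 genes lie 23.0 to 29.3 kb beyond.

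The hairpins of Mir17 (chr14:115043671-115043754, plus strand) and Mir106a (chrX:52742503-52742567, minus strand) are shown with the 5p mature miRNA in capitals, since these paralogues have nearly the same product and different distances, 6.25 and 257 kb.
Mir17: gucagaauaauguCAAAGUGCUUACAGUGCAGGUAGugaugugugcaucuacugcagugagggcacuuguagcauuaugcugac
Mir106a: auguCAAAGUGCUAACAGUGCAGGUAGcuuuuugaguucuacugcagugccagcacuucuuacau

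The clusters typical of early embryonic cells, Mir290 and Mir302, had no member within 10 kb of a boundary and lay at different distances from one. The Mir290 cluster, known as the most abundant miRNA cluster of mouse ESCs, has 9 annotated genes within 2.22 kb on chromosome 7 (chr7:3218626-3220841). All 9 lay 379 to 381 kb before the first boundary of that chromosome, so they belong to no domain with 2 called ends. Of them 7 fell within the span of Nlrp12, an innate immune sensor gene that runs on the minus strand, and Mir294 and Mir295 on the plus strand. The Mir302 cluster, which rises as cells leave the naive state, has 5 genes in 0.580 kb on chromosome 3 (chr3:127545228-127545807), antisense within Larp7. They lay 29.2 to 29.7 kb from the boundary at 127575001 to 127600000, in a 625 kb domain. The let-7 family, which marks differentiation and is blocked in ESCs by Lin28, had 12 genes in 8 loci under the symbols listed, from 28.8 kb for Mirlet7g in Wdr82 to 550 kb for Mirlet7c-1. None of the 12 was within 10 kb. Mir7k, which is not among those symbols and encodes let-7k, lay 66.7 kb from a boundary. Mirlet7d, Mirlet7f-1 and Mirlet7a-1 lay together at 36.0 to 38.2 kb on chromosome 13, and Mirlet7f-2 and Mir98 at 438 and 437 kb in Huwe1 on chromosome X. Between these lay Mirlet7e at 69.6 kb, Mirlet7b and Mirlet7c-2 at about 168 kb, Mirlet7i at 186 kb and Mirlet7a-2 at 312 kb.
let-7a-5p: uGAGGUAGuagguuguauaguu
let-7g-5p: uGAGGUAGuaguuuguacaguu

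Of the 6 miRNA genes in Hox clusters, which repress Hox messages, 2 lay inside a boundary interval. Mir196b lies in the interval at 52225001 to 52250000 in HoxA and Mir196a-1 in that at 96250001 to 96275000 in HoxB, antisense within the long non-coding RNAs Gm52902 and Gm51876. The remaining copy, Mir196a-2 in HoxC, lay 23.4 kb from an interval, Mir10b in HoxD 26.1 kb, Mir10a in HoxB 42.2 kb and Mir615, in Hoxc5, 64.9 kb. In HoxB the boundary therefore holds Mir196a-1 and leaves Mir10a in the domain above it.

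Neuronal and muscle miRNAs occurred in several copies at different distances. Mir124a-1, an abundant neuronal miRNA, lay inside the interval at 64575001 to 64600000 on chromosome 14 together with Mir3078, in Mir124a-1hg. Its other copies Mir124a-2 and Mir124a-3 lay 54.2 and 269 kb away. Mir137, which acts in neuronal development, lay 8.86 kb from the boundary that opens a 1250 kb domain with 1 protein-coding gene midpoint. The 3 copies of Mir9 lay 38.8, 84.3 and 245 kb away, and Mir218-1 and Mir218-2, in Slit2 and Slit3, 151 and 83.1 kb away, although both host genes have an end inside an interval. Mir7-2 lay 11.6 kb from one, just outside the window, and Mir7-1 and Mir7b 207 and 293 kb away. The activity-regulated pair Mir132 and Mir212 lay 551 and 552 kb from a boundary. In muscle, Mir1a-2, Mir1b and Mir133a-1 lay 14.4, 14.4 and 17.025 kb from a boundary within Mib1, which itself ends inside that interval. Mir1a-1 and Mir133a-2 lay 211 and 202 kb away, and Mir206 and Mir133b 104 and 108 kb. Mir208a, Mir208b and Mir499, hosted by the myosin heavy chain genes Myh6, Myh7 and Myh7b, lay 74.1, 101 and 148 kb away.

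Among vascular and fibroblast miRNAs, Mir126a and the overlapping Mir126b, in the endothelial gene Egfl7, lay 8.57 and 8.58 kb from the boundary at 26600001 to 26625000 on chromosome 2. Mir301, in Ska2, lay inside the interval at 87100001 to 87125000 on chromosome 11. That interval closes the 600 kb domain of Mir21a, an miRNA raised in many tumours, which lay 84.1 kb from the interval at its other end. The cluster of Mir23b, Mir27b and Mir24-1 on chromosome 13 lay 124 kb from a boundary and its paralogue on chromosome 8, Mir23a, Mir27a and Mir24-2, 209 kb. Mir301 shares its seed with Mir130a and Mir130b, at 291 and 49.1 kb.
miR-301a-3p: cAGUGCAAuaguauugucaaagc
miR-130a-3p: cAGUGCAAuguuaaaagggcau
miR-130b-3p: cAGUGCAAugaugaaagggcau
Among epithelial miRNAs Mir203 was the near one, and the Mir200 genes on chromosomes 4 and 6 lay 229 to 231 kb and 81.6 kb away. In the growth control group Mir29a and Mir29b-1, which target collagen messages, lay 12.7 and 13.02 kb from an interval, just outside the window. The p53 targets Mir34a, Mir34b and Mir34c lay 56.4, 46.4 and 46.9 kb away, and Mir15a and Mir16-1, in Dleu2, 82.0 and 81.9 kb. In the blood and immune group the nearest was Mir146 at 25.5 kb, with Mir223 at 42.8 kb, the erythroid Mir144 and Mir451a at 48.0 and 48.2 kb, Mir155 at 114 kb, the 6 Mir181 genes at 108 to 372 kb, Mir142 at 332 kb and Mir221 and Mir222 at 646 and 647 kb. Of the imprinted genes outside the Sfmbt2 and Meg3 loci, Mir298 and Mir296 lay 32.4 and 32.9 kb from a boundary, Mir675 in H19 123 kb and Mir335 in Mest 284 kb.

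By seed, 54 families held 3 or more genes in more than 1 locus, from the 1738 mature sequences that matched 1058 of the genes. In 41 of these families no gene was near a boundary, in 13 at least 1 was, and in 0 of them all were. Together they hold 200 genes, of which 18 were near, against 122 of all 1228 miRNA genes. The seed AAAGUGC had 5 of 7 genes near, including 0 inside, over 4 loci. The seed AGGUAGU of miR-196 had 2 of 3 near, both inside. The seed GUGCAAA of miR-19 had 2 of 3 near, with the third at 258 kb, and AUUGCAC had 2 of 7, over 6 loci. The largest family, GAGGUAG of let-7, which also holds Mir1961 and Mir7k, had 0 of 13 near and the next, AGCAGCA of miR-15 and miR-16, 0 of 11. Genes of 1 cluster share their position, so the genes of a family are not independent of each other. Short seeds are also shared by unrelated miRNAs, such as Mir6383, which carries AAAGUGC on chromosome X 8.25 kb from a boundary.

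Host genes contained 956 of the 1228 miRNA genes, 825 of them in a protein-coding gene and 120 in a long non-coding RNA, and 272 were intergenic. Hosted genes were near a boundary in 95 cases (9.94%, interval 8.20 to 11.997) and intergenic genes in 27 (9.93%, interval 6.91 to 14.1). The shares within 10 kb in protein-coding and long non-coding hosts were 9.58% and 11.7%, with overlapping intervals. Strands of gene and host were matched for 697 of the hosted genes, 585 on the same strand as the host and 112 on the opposite one. Of these, 62 on the same strand (10.6%) and 14 on the opposite one were near, the second with an interval of 7.59 to 19.9%.

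The share of near members was highest in short hosts, and most near hosted genes had a host with an end near the boundary. In hosts of up to 20 kb, 46 of 279 miRNA genes were near (16.5%, interval 12.6 to 21.3), in hosts of 20 to 100 kb 33 of 382 (8.64%, interval 6.22 to 11.9) and in hosts over 100 kb 16 of 295 (5.42%, interval 3.37 to 8.63). The class over 100 kb includes the 72 genes of the Sfmbt2 locus, none of them near, so its low share rests partly on 1 locus. Of the 95 near hosted genes, 84 had a host with an end within 10 kb of a boundary (88.4%), against 17.3% of all hosted miRNA genes. The 791 hosted genes whose host had no end near were themselves near in 11 cases (1.39%). A gene in a short host cannot be far from the host's ends, so these shares partly restate each other. Of the 76 near hosted genes whose host strand was known, 14 had the 5′ end of the host near, 21 the 3′ end, 30 both and 11 neither. Over the 597 hosts of known strand, the 5′ end was near in 11.7% and the 3′ end in 12.4%, against 12.2% and 12.6% of protein-coding genes of known strand and 10.9% and 10.8% over all 26794 genes of known strand.

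**Figure D4:**
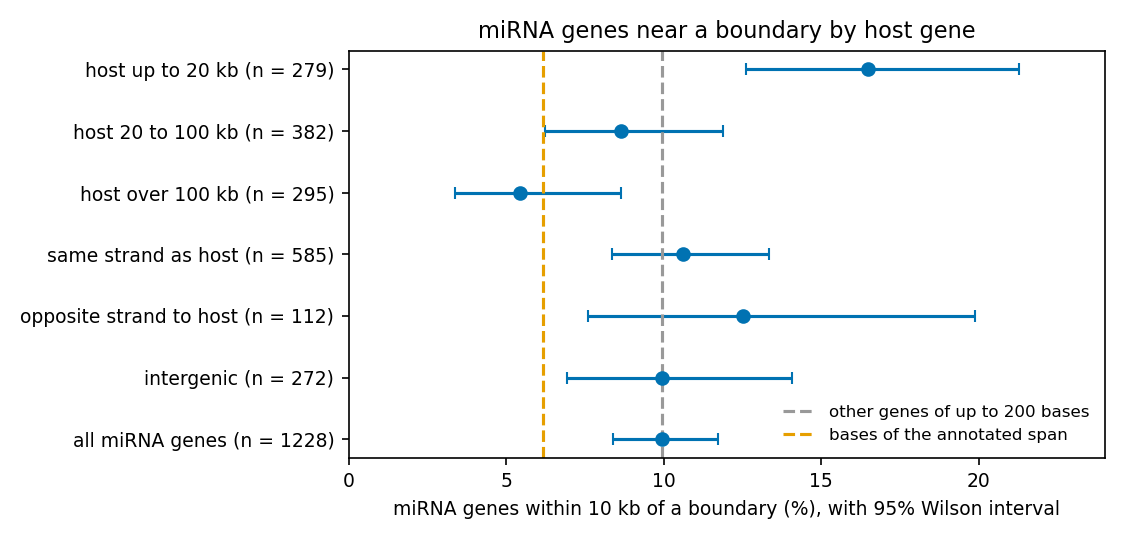
Share of miRNA genes within 10 kb of a boundary (x axis, %, points with 95% Wilson intervals) by length and strand of the host gene, for intergenic genes and for all 1228 (rows). Dashed lines mark the other genes of up to 200 bases (9.93%) and the bases of the annotated span (6.16%), and the share runs from 16.5% in hosts of up to 20 kb to 5.42% in hosts over 100 kb. The class over 100 kb includes the 72 genes of the Sfmbt2 locus, none of them near.

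Inside intervals, 56 of the 63 miRNA genes had a host, in 50 different genes, against 956 of all 1228 miRNA genes with a host. Gm24148 lay in Ncl, which encodes the ribosome biogenesis factor nucleolin, Mir6935 in Actg1, a cytoplasmic actin gene, and Mir3064 in the RNA helicase gene Ddx5. Mir186 lay in the splicing factor gene Zranb2 and Mir3112 in Cstf2, a polyadenylation factor gene. Mir207 lay in Dnaja1 and Mir5710 in Dnaja4, both heat shock co-chaperone genes, Mir6376 in Rpn1 of the oligosaccharyltransferase and Mir6900 in Ndufa10 of respiratory complex I. Mir7578 lay in Brd3, an acetyl-lysine reader gene, Mir6905 in the Mediator gene Med23 and Mir7025 in Pdgfra, a growth factor receptor gene. Mir101a, whose targets include the Polycomb gene Ezh2, lay in the long non-coding RNA E130102H24Rik. The sequences of miR-186 and miR-101a are printed with that of miR-210, an hypoxia-induced miRNA that lay inside the interval at 141200001 to 141225000 on chromosome 7 without a host.
miR-186-5p: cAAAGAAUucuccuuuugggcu
miR-101a-3p: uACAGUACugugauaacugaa
miR-210-3p: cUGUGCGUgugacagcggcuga
Metabolic and transport hosts were Decr1 of mitochondrial fatty acid oxidation (Mir6400), the glucose-6-phosphate transporter gene Slc37a4 (Mir7085), the zinc transporter gene Slc30a7 (Mir669n, antisense), the lipid phosphatase gene Plpp2 (Mir6909) and the calcium entry regulator gene Saraf (Mir6395). Signalling and secreted products were encoded by Rasa4 (Mir7035), Elmo3 (Mir328), Mst1 (Mir7088), Kctd12 (Mir5130), Fcgr3 (Mir6546) and Slpi (Mir7678). Further protein-coding hosts were Nfx1 (Mir3094), Nrd1 (Mir761), Pabpn1l (Mir6396), Ifrd1 (Mir1938), Pde12 (Mir7672), Azin1 (Mir6951), Lcor (Mir8091) and Tmem255a (Mir3110). Further long non-coding hosts were 6030407O03Rik (Mir6351), Gm40301 (Mir8117), Gm45968 (Mir5118) and Snhg4 (Mir1949), and Mir760 lay in Gm40190, of another class.
The other six intergenic members inside an interval were Mir484, Mir680-3, Mir6337, Mir7652, Mir5112 and Gm51269.

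Outside the interval but within 10 kb lay 39 hosted and 20 intergenic genes. Mir1306 and its neighbour Gm24572 lay 9.24 and 9.55 kb from a boundary in Dgcr8, which encodes the RNA-binding partner of Drosha, and Dgcr8 itself ended inside the interval. Mir7079 lay 4.98 kb away in the ribosomal protein gene Rpl13, Mir6939 9.28 kb away in the kinase gene Akt1 and Mir135a-1 4.12 kb away in Glyctk, on the opposite strand. Some hosts had no near end. Mir7656 lay 1.83 kb from a boundary in Slc9a9, whose nearer end was 55.4 kb away, and Mir7223 3.09 kb from one in Prkca, whose nearer end was 66.6 kb away. Mir496b lay 9.997 kb away in Gnaq, a G protein gene, just inside the window, and Mir7004 9.24 kb away in Atp9a. Mir7079, Mir6939, Mir7656, Mir7223 and Mir7004 were singled out after their values were seen.

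The remaining near hosted genes lay in Elavl2 (Mir6402), Myh3 (Mir6923), Alg10b (Mir7648), Urb2 (Mir1967), Nupl1 (Mir719), Dner (Mir5126), Baiap3 (Mir3547), Coro6 (Mir12181), Pdxk (Mir6908), Aldh4a1 (Mir7020), Acin1 (Mir6948), Pom121 (Mir7033), Smoc1 (Mir3067), AU021092 (Mir6364), Kif20b (Mir1950), Tpx2 (Mir5622), Scarna13 (Mir3069), Gm26671 (Mir6377) and 5430402O13Rik (Mir6371). Their distances ran from 0.126 kb for Mir6923 in Myh3, the embryonic myosin heavy chain gene, to 9.88 kb for Mir5622 in the spindle gene Tpx2. The nearest intergenic genes were Mir8109, Mir2136 and Mir5625 at 0.905, 1.11 and 1.99 kb, followed by Mir3471-1, Mir8102, Gm51284 and Mir6361 at 4.37, 4.97, 5.03 and 5.57 kb. Mir30c-2, Mir6380 and Mir6420 lay 8.22, 8.54 and 9.09 kb from a boundary.

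At the far end, Mir6238 lay 1858 kb and Mir297-1 1841 kb from a boundary on chromosome 7, the second in a 5825 kb domain with 64 protein-coding genes. Mir8099-2 on chromosome 12, Mir6379 on chromosome 3 and Mir5129 in Zeb2 on chromosome 2 lay 1798, 1526 and 1348 kb away. The domains of Mir6238, Mir8099-2, Mir6379 and Mir5129 held 1 to 3 protein-coding gene midpoints each.

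Seen from the boundaries, 100 of 3515 had a miRNA gene inside or within 10 kb (2.84%), 90 of them 1 gene and 6 of them 3 or more. Of those 100, 81 also had a protein-coding gene ending or starting this close, against 64.3% of all boundaries. The host of a near miRNA gene can itself supply that end, since 84 of the 95 near hosted genes had a host end this close. The higher share is therefore partly built in. Seen from the domains, 655 of 3495 held a miRNA gene (18.7%), 560 of them 1 locus, 74 of them 2 and 21 of them 3 or more. Domains with a miRNA gene had a median length of 600 kb and a median of 6 protein-coding genes, against 475 kb and 3 for domains without one. Longer domains have more room: 12.8% of domains up to 325 kb held a miRNA gene and 23.6% of those over 825 kb. Per Mb the order was the opposite, with 0.528 loci in domains up to 325 kb and 0.206 in those over 825 kb. The domain with most genes among those with 4 loci, 1175 kb on chromosome 7, held Mir150, Mir707, Mir5121 and 4 genes of the Mir7052 to Mir7055 series beside 68 protein-coding genes.

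By chromosome the share of near miRNA genes ran from 0 of 36 on chromosome 13 to 12 of 43 on chromosome 14, where 6 of the 12 are the Mir17 cluster. Chromosome 16 had 9 of 35 and chromosome 17 11 of 44, over 7 and 6 near loci. All annotated genes were near in 10.7%, 13.6% and 13.3% of cases on chromosomes 14, 16 and 17. Of the near genes on chromosome 17, 4 lie at 1 boundary and 3 at another. Chromosome 7 had 1 of 88, Mir210, against 9.97% of all annotated genes of that chromosome. On chromosome 13 14.2% of all annotated genes were near.

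**Figure D5:**
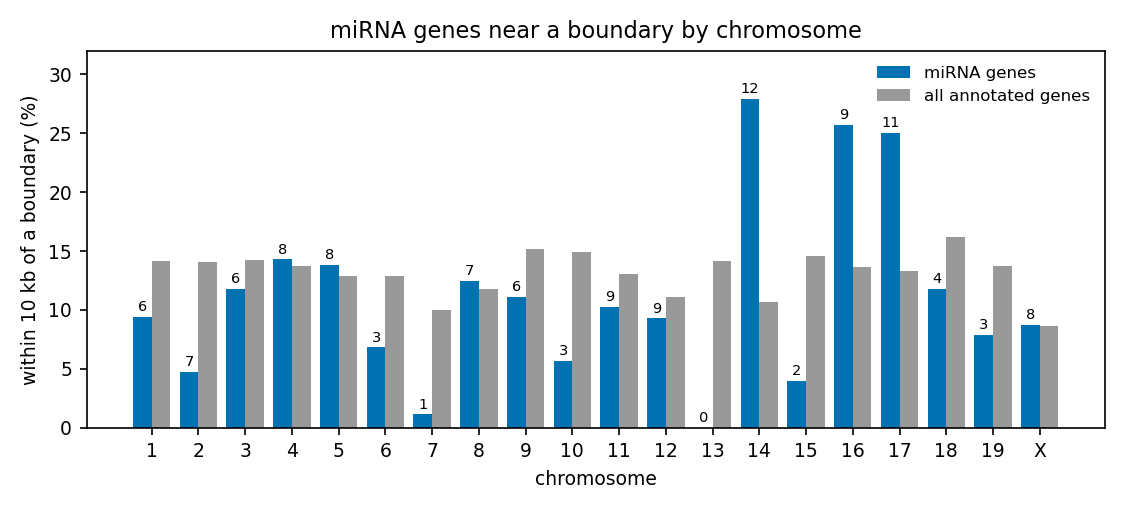
Share within 10 kb of a boundary (y axis, %) of miRNA genes and of all annotated genes on each chromosome (x axis), with the number of near miRNA genes above each bar. The miRNA share is highest on chromosomes 14, 16 and 17, with 12 of 43, 9 of 35 and 11 of 44 genes, and is 0 on chromosome 13.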

How the data were processed

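The submitters' processing notes name the build mm10 and the tools BWA 0.7.17 and Juicer 1.22.01. The deposited values of other units used here are the start and end of each boundary interval, without a score, called on the pooled DMSO-treated ESC libraries, per the labels. How boundaries were called is not given in these sources. Genes were taken from RefSeq for GRCm38.p6. The 345 genes of scaffolds, listed after each chromosome's sorted genes, were left out, and none is a miRNA gene. Distances run from the nearer gene end to the nearer interval edge, and were tested on simulated data against direct enumeration. A host is a gene that spans the whole miRNA gene, protein-coding first and then the shortest. Strands came from RefSeq miRNA and promoter tables, and mature sequences from the miRNA table. The members and the lists of 12 groups were chosen with earlier results of these data known. Named were members of these groups, the largest loci, members inside intervals or in divided loci, hosts of near genes, and the farthest members. Replicates were pooled by the authors, so no test was made. Division by symbol number, the short-gene comparison and the exclusion of the largest loci were added after seeing the data. Computations used pandas 2.3.3 and numpy 2.4.6 in Python 3.11.15, with Wilson intervals from scipy 1.17.1 and plots from matplotlib 3.10.9. A host gene inside an interval, with its miRNA genes, is not reported here by name.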

Additional observations from a re-analysis of the deposited data

How the results depend on the processing

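The share of miRNA genes near a boundary was 5.13% with no window and 23.8% with 50 kb. For loci these values were 6.74 and 27.4%, for hosted genes 5.86 and 23.3%, for intergenic genes 2.57 and 25.4%, and for boundaries with a miRNA gene 1.59 and 6.49%. The median distance was 116 kb counted by locus, 158 kb from midpoint to interval centre and 126 kb without the Sfmbt2 and Meg3 loci, the last added after seeing the data. Divided loci numbered 0 and 26 with neighbours joined under 50 and 250 kb. Changes with the window, the distance measure and the joining distance follow at least in part from the alternative's own definition. The order of hosted and intergenic shares, however, turned between no window and 50 kb. The median without the Sfmbt2 and Meg3 loci reflects where the genes of those loci lie. Every share stayed within its counting interval on the autosomes alone, without the chromosome with most near members, with gene midpoints, with other joining distances, with protein-coding hosts alone and without the 2 largest loci, each where it was run. No paired analysis was possible because the boundary list pools its replicates. Contact depth is unknown, so a boundary missed for want of contacts cannot be told from one that is absent, and mappability was not tested.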

Other observations

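Symbol numbers largely follow the order in which miRNAs were registered. Outside the Sfmbt2 and Meg3 loci, genes numbered 1000 or above were near a boundary in 79 of 645 cases (12.2%, interval 9.94 to 15.0) and genes numbered under 1000, with let-7, in 35 of 404 (8.66%, interval 6.30 to 11.8). The median distances were 126 and 133 kb. With those loci the shares were 12.1 and 6.65%. The comparison was chosen after seeing the data and was not tested.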
